A study of Homo sapiens with 6 samples.

Results

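The 8 genes described here were measured in 6 RNA-seq libraries of A549 cells. They are the transcription factor genes FOXA1, FOXA2, HNF4A, HNF4G, GATA6 and CEBPA, and the genes AADAC and A1CF. They were taken by symbol from the 30230 genes of the deposited count table, and all 8 were among the 17076 genes with enough counts to be tested. The list was drawn up as endoderm genes that were higher after FSCN1 silencing, so the difference between the groups was used in choosing them, and it is given for these 8 genes as a description, with no test. The label held for part of the list. The fitted log2 fold change was above 0 for 6 of the 8 genes and below 0 for GATA6 and CEBPA, and the libraries of the groups overlapped for HNF4G.

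A549 is an established line of human lung adenocarcinoma cells. The NC group held 3 libraries of A549 cells given a scramble siRNA, which the treatment label calls a control plasmid, and the siFSCN1 group held 3 libraries of A549 cells given an siRNA against FSCN1, which encodes fascin, a protein that bundles actin filaments. Cells were collected 48 h after transfection according to the methods of the study, which also describe the libraries of each group as biological replicates. The study names a single siRNA for these libraries, so effects of that siRNA other than on FSCN1 cannot be told apart from the loss of FSCN1. The question put to the data was how these endoderm genes stood in the silenced cells.

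FOXA1 and FOXA2 are forkhead factors that open compact chromatin and help to set up gut, liver, pancreas and lung epithelium. HNF4A and HNF4G are nuclear receptors of liver and intestine, GATA6 is a zinc finger factor of early endoderm, lung and gut, and CEBPA is a leucine zipper factor of liver and lung differentiation. AADAC, arylacetamide deacetylase, is an esterase of the endoplasmic reticulum that is abundant in liver and intestine, and A1CF is the RNA-binding partner of the cytidine deaminase APOBEC1 in the editing of the APOB message.

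The start regions of AADAC, A1CF and HNF4A are printed because these 3 genes had the highest fitted fold changes of the 8. Each run covers 250 bases before and 50 bases after a RefSeq start (GRCh38.p14), is written 5′ to 3′ on the strand of the gene, and has in capitals every match on either strand to AGATAA for GATA factors, to the letters GTTAAT and to the TATA box letters TATAAA. A match on the opposite strand stands as its reverse complement. The start region of AADAC is chr3:151813866-151814165 on the plus strand and that of A1CF is chr10:50885578-50885877 on the minus strand. HNF4A has an upstream start region at chr20:44355449-44355748 and a downstream start region at chr20:44400989-44401288, both on the plus strand.
AADAC: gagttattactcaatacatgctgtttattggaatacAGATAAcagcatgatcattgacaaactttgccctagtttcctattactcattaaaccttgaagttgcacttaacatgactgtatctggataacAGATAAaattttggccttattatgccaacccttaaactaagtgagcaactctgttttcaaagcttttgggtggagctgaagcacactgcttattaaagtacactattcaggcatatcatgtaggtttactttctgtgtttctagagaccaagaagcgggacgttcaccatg
A1CF: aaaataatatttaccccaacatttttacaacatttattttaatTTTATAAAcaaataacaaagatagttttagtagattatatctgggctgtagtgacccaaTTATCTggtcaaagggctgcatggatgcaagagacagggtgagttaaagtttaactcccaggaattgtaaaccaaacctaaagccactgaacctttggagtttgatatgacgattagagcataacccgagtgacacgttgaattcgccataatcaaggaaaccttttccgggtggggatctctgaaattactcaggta
HNF4A upstream: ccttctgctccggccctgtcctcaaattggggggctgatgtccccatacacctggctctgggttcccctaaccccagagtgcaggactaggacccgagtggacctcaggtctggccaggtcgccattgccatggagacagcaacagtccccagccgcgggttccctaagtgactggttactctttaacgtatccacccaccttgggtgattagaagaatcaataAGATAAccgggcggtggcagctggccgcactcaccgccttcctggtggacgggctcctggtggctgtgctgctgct
HNF4A downstream: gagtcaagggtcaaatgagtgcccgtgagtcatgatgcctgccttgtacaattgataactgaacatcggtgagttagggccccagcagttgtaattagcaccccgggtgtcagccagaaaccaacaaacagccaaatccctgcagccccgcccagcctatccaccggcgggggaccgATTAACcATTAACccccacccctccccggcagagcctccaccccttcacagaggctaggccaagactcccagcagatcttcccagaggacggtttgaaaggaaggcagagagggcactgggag

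The AADAC run held 2 GATA matches, which began 214 and 121 bases before the start. The A1CF run held 1 GATA match, 148 bases before the start, and TATA letters on both strands that overlapped each other near 205 bases before it. The upstream HNF4A run held 1 GATA match, 26 bases before the start, and the downstream run held 2 matches to GTTAAT, 73 and 66 bases before its start. GATA letters occurred in 10.3% of the 35116 start regions of the same length, the letters GTTAAT in 6.88% and TATA letters in 11.5%. Of 7 start regions that covered 6 of the 8 genes, 3 held GATA letters. The FOXA letters TGTTTAC, the HNF4 letters CAAAGTCCA, the nuclear receptor letters AGGTCA and the C/EBP letters TTGCGCAA were in none of the 7, beside 3.42%, 0.384%, 13.8% and 0.151% of all start regions. The start regions differed in base composition. The G and C content was 37.3% for AADAC and 36.7% for A1CF, below the median of 58.7% over all start regions, against 69.3% for FOXA1, 66.7% for GATA6 and 80.7% for CEBPA. The HNF4A regions held 60% upstream and 57.7% downstream. FOXA2 was not matched in the sequence table. Start regions on chromosome 8 were left out for the 8 genes, so HNF4G, which lies there, was not searched.

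The libraries held 27967301 to 36560919 counts each. No library was a copy of another, since the chi-square of 2 libraries, divided by its degrees of freedom, was 3.11 to 8.23 within a group and 108 to 133 between groups. FSCN1 stood at 44.98, 47.24 and 45.99 FPKM in NC replicates 1 to 3 and at 4.46, 2.82 and 3.19 FPKM in siFSCN1, which matched the labels (log2 fold change −3.89 ± 0.094, SE). FPKM is the deposited level, scaled to gene length and sequencing depth, and is used here to compare genes with each other. CPM is counts scaled to library size after TMM and is used to compare groups. FPKM lacks the TMM scaling, and log2 fold changes fitted on log2(FPKM + 0.1) stood a median of 0.16 above those fitted on counts. Where the levels of both groups are given in FPKM, the fitted value from counts is the measure of the difference. All 9 markers of A549 epithelium (keratins, AKR1C1, ALDH1A1 and others) were detected in every library. Their summed level was 35090 to 38516 CPM in NC and 27378 to 29117 CPM in siFSCN1, and 7 of the 9 were lower at an adjusted p under 0.05, beside 33.2% of all tested genes and 44.1% of those with a mean FPKM of 1 or more, where all 9 lie. In bulk RNA, fewer cells that express a gene and less of its RNA per cell cannot be told apart.

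In NC, the 8 genes spanned the range from readily measured to barely detected. CEBPA (9.83 ± 0.471 FPKM, SD, n = 3) and FOXA2 (9.64 ± 0.160 FPKM) were the highest and overlapped, at the 81.4 and 81.1 percentile of all tested genes. AADAC followed at 3.98 ± 0.654 FPKM, then FOXA1 at 2.48 ± 0.329 FPKM and HNF4A at 2.04 ± 0.172 FPKM, whose libraries overlapped. GATA6 stood at 0.983 ± 0.121 FPKM. A1CF (0.227 ± 0.031 FPKM) and HNF4G (0.190 ± 0.040 FPKM) were the lowest and overlapped, and HNF4G was at the 13.9 percentile. In siFSCN1 the order was AADAC, FOXA2, CEBPA, HNF4A, FOXA1, GATA6, A1CF and HNF4G, and no neighbours in that order overlapped in FPKM. AADAC thus went from the third place in NC to the highest place in siFSCN1, and HNF4A passed FOXA1.

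**Figure D1:**
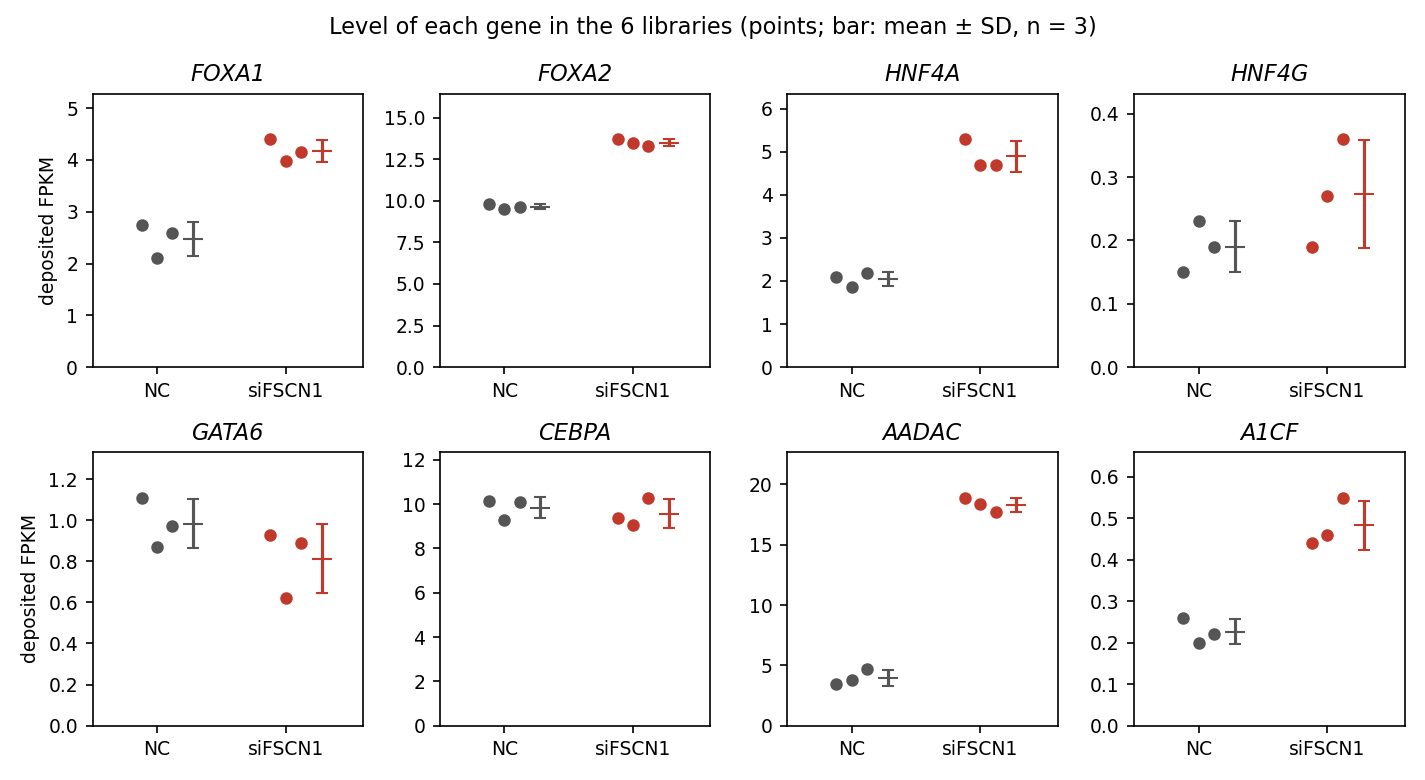
Deposited FPKM (y axes, each from 0 and on its own scale) of the 8 genes in the 3 NC (grey) and 3 siFSCN1 (red) libraries, with a point for each library and a bar for the mean ± SD, n = 3. FOXA1, FOXA2, HNF4A, AADAC and A1CF separate fully between the groups, while the points of HNF4G, GATA6 and CEBPA overlap on this scale.

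The forkhead genes were both higher in siFSCN1 by less than 2-fold. FOXA1 (ENSG00000129514.8, chr14:37589552-37596059, minus strand) was at 2.74, 2.11 and 2.59 FPKM in NC and at 4.40, 3.97 and 4.16 FPKM in siFSCN1. Every siFSCN1 library was above every NC library, and the fitted log2 fold change was 0.58 ± 0.087 (SE). FOXA2 (ENSG00000125798.15, chr20:22580998-22585455, minus strand) was at 9.80, 9.48 and 9.64 FPKM in NC and at 13.71, 13.47 and 13.31 FPKM in siFSCN1. Its groups did not overlap and its libraries were the tightest of the 8 genes, with a CPM SD of 2.28% of the mean in NC and 1.13% in siFSCN1. The fitted log2 fold change of FOXA2 was 0.32 ± 0.049, or 1.25-fold. In FPKM, the difference of FOXA2 between the group means was 3.86 and that of FOXA1 was 1.70, so FOXA2 differed by more FPKM although its ratio was smaller. Both differences include the upward shift of FPKM in siFSCN1.

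HNF4A and HNF4G are the paralogs of the HNF4 receptor and stood far apart. HNF4A (ENSG00000101076.18, chr20:44355699-44432845, plus strand) was at 2.10, 1.85 and 2.18 FPKM in NC and at 5.29, 4.68 and 4.69 FPKM in siFSCN1. The groups did not overlap, and the fitted log2 fold change was 1.09 ± 0.062, or 2.13-fold. HNF4A has 17 transcripts in the GENCODE annotation. The RefSeq starts of the upstream and downstream regions shown above lie 45.54 kb apart, and the counts per gene do not separate transcripts by start. HNF4G (ENSG00000164749.13, chr8:75407914-75566834, plus strand) was at 0.15, 0.23 and 0.19 FPKM in NC and at 0.19, 0.27 and 0.36 FPKM in siFSCN1, from 27, 36 and 39 counts and 34, 48 and 66 counts. The lowest siFSCN1 library of HNF4G lay inside the NC range. Its fitted log2 fold change was 0.35 ± 0.26, and it was 0.08 without siFSCN1 replicate 3 and 0.56 without siFSCN1 replicate 1.

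GATA6 and CEBPA did not follow the other factors. GATA6 (ENSG00000141448.11, chr18:22169589-22202528, plus strand) was at 1.11, 0.87 and 0.97 FPKM in NC and at 0.93, 0.62 and 0.89 FPKM in siFSCN1. These ranges overlap, whereas in CPM the NC libraries (5.36, 4.14 and 4.62) were all above the siFSCN1 libraries (3.92, 2.67 and 3.80). The fitted log2 fold change of GATA6 was −0.44 ± 0.15, and it was −0.29 without siFSCN1 replicate 2. CEBPA (ENSG00000245848.3, chr19:33299934-33302534, minus strand) was at 10.12, 9.29 and 10.09 FPKM in NC and at 9.35, 9.05 and 10.29 FPKM in siFSCN1, which overlap. In CPM the groups of CEBPA did not overlap, and the fitted log2 fold change was −0.21 ± 0.058. The value for CEBPA depended on the scaling, since it was −0.02 when the counts were scaled to library totals, a setting that also moved the median of all tested genes up by 0.19.

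AADAC had the largest difference of the 8 genes. AADAC (ENSG00000114771.14, chr3:151814073-151828488, plus strand) was at 3.47, 3.76 and 4.72 FPKM in NC and at 18.91, 18.35 and 17.74 FPKM in siFSCN1. The lowest siFSCN1 library was well above the highest NC library, on 203 to 329 counts in NC and 1106 to 1174 counts in siFSCN1. The fitted log2 fold change was 2.03 ± 0.082, or 4.08-fold, above 97.8% of all tested genes. A1CF (ENSG00000148584.15, chr10:50799409-50885675, minus strand) was at 0.26, 0.20 and 0.22 FPKM in NC and at 0.44, 0.46 and 0.55 FPKM in siFSCN1. The groups of A1CF did not overlap, on 65 to 91 counts in NC and 161 to 202 counts in siFSCN1. Its fitted log2 fold change was 0.92 ± 0.14, or 1.89-fold, and it passed 2-fold without NC replicate 1 (1.01).

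Over the 8 genes the fitted log2 fold change ran from −0.44 to 2.03 with a median of 0.47, beside a median of 0.03 over all tested genes. AADAC and HNF4A were past 2-fold. In CPM, 5 of the 8 were higher in every siFSCN1 library and 2 were lower in every siFSCN1 library, beside 36.8% and 34.4% of all tested genes. Because the genes were chosen from this contrast, nothing is read from these counts. A call in the text below means an adjusted p under 0.05 by edgeR's quasi-likelihood test together with a fold change of at least 2. Among all tested genes, 11.7% were called higher and 4.85% lower in siFSCN1.

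The background was not even across expression levels, and this bears on the low genes. Among tested genes with a mean FPKM under 1, 24.9% were called higher and 5.06% lower, and the median log2 fold change was 0.40. Among those with a mean FPKM of 1 or more, 4.56% were called higher and 4.75% lower, with a median of −0.09. In CPM, 45.9% of the low class were higher and 14.2% lower in every siFSCN1 library, against 32% and 45.3% of the class of 1 FPKM or more. A gene that is near 0 in NC enters the test through its counts in siFSCN1, so the low genes that passed the filter include those that had to be higher. The mean is taken over all 6 libraries, so a gene under 1 FPKM in NC can reach the upper class through siFSCN1. A1CF, HNF4G and GATA6 lie in the low class, and the other 5 genes lie in the class of 1 FPKM or more.

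The closest relatives of the 8 genes were compared next, since a family can share a role. Of 17 paralogs listed, 13 were in the table and 10 were tested. Of the 10, 1 was called higher (10%) and 2 lower (20%), beside 11.7% and 4.85% of all tested genes. The third FOXA gene, FOXA3, was at 0.72, 0.72 and 0.83 FPKM in NC and 1.55, 1.11 and 1.06 FPKM in siFSCN1. Its groups did not overlap (log2 fold change 0.54 ± 0.18, adjusted p = 0.0127). FOXA3 lies in the class with a mean FPKM under 1, where the median of all tested genes was 0.40. All 3 FOXA genes were higher by less than 2-fold, but FOXA1 and FOXA2 were chosen from this contrast. Among the GATA genes, GATA4, a heart and endoderm factor, fell from 0.907 ± 0.050 FPKM to 0.463 ± 0.076 FPKM (log2 fold change −1.14 ± 0.15, adjusted p = 1.99e-06), which was under 2-fold when scaled to library totals (−0.95). GATA2, a blood and vascular factor, had a log2 fold change of −0.52 ± 0.17 (adjusted p = 0.0106) and passed the test below 2-fold. GATA3, a factor of T cells and trophoblast, did not pass (0.39 ± 0.23, adjusted p = 0.142).

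The C/EBP family spread widely around CEBPA. CEBPD, a factor of the acute-phase response, was at 24.83, 21.56 and 26.26 FPKM in NC and 59.40, 53.65 and 51.13 FPKM in siFSCN1. The groups of CEBPD were far apart, and it rose with a log2 fold change of 1.01 ± 0.066 (adjusted p = 2.08e-10), just past 2-fold. That call was lost without NC replicate 2 (0.92) or without siFSCN1 replicate 1 (0.94), and with DESeq2 (0.99). CEBPB was the most abundant of the family at 99.5 FPKM in NC and 124 FPKM in siFSCN1 and rose by 0.15 ± 0.039 on the log2 scale (adjusted p = 0.00281). CEBPG rose by 0.19 ± 0.046 (adjusted p = 0.0017). CEBPA, at −0.21, was the only tested member of this family with a fitted value below 0, a comparison of values and not a test of the difference.

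Beside AADAC, the related neutral cholesterol ester hydrolase NCEH1 moved the other way. NCEH1 was at 6.29, 6.99 and 6.45 FPKM in NC and at 2.36, 2.03 and 2.04 FPKM in siFSCN1, with no overlap, and it fell by 1.78 ± 0.064 on the log2 scale (adjusted p = 5.39e-14). In NC, NCEH1 (6.58 FPKM) was higher than AADAC (3.98 FPKM), and in siFSCN1 AADAC (18.3 FPKM) was higher than NCEH1 (2.14 FPKM). Beside A1CF, the RNA-binding paralog RBM47, which also serves as a cofactor of APOBEC1, was at 5.86 FPKM in NC and 6.19 FPKM in siFSCN1 and did not pass the test (log2 fold change −0.09 ± 0.053, adjusted p = 0.153). RBM47 was therefore the more abundant of these cofactors in either group. DND1, a germ cell RNA-binding protein, rose by 0.66 ± 0.19 (adjusted p = 0.00518).

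**Figure D2:**
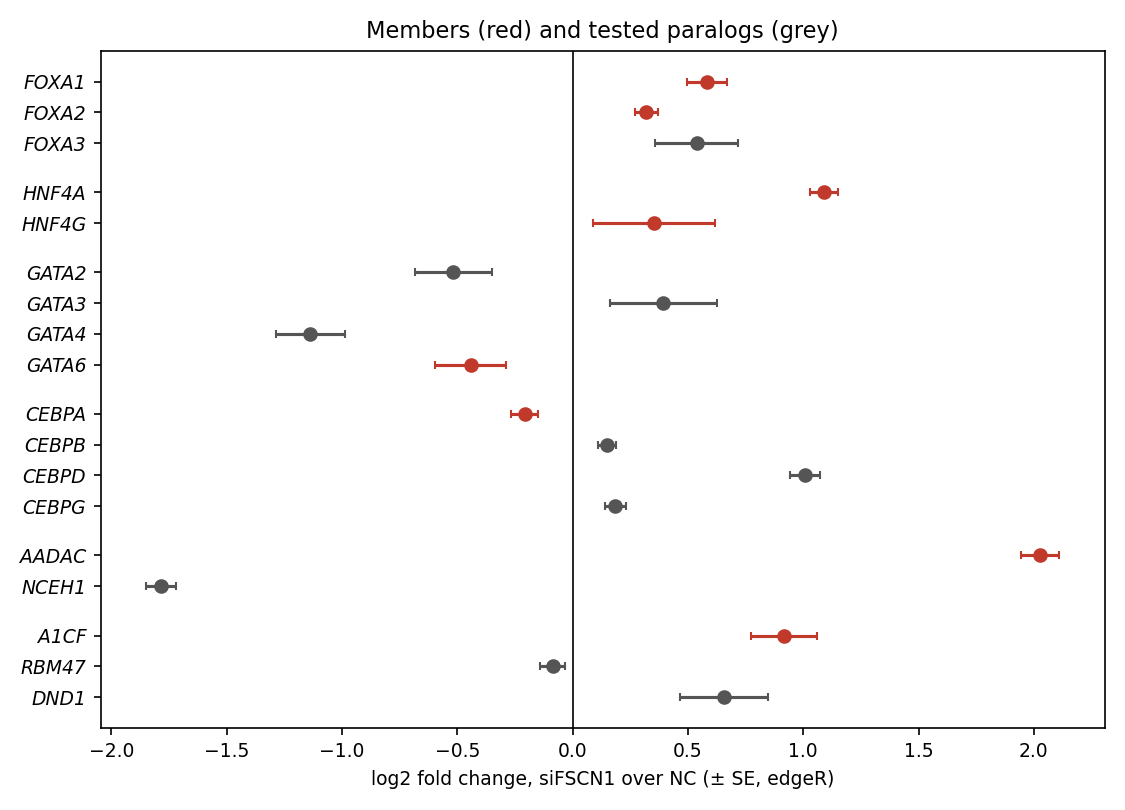
Fitted log2 fold change of siFSCN1 over NC (x axis, ± SE from edgeR, 3 libraries a group) for the 8 genes (red) and their 10 tested paralogs (grey), grouped by family. AADAC at 2.03 and NCEH1 at −1.78 lie at opposite ends, GATA6 and GATA4 are both below 0, and the 3 FOXA genes are all above 0.

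The wider set of endoderm regulators held genes that moved in either direction, mostly by less than 2-fold. Of 47 other endoderm transcription factors listed, 41 were in the table and 33 were tested. Of the 33, 4 were called higher (12.1%) and 2 lower (6.06%), near the 11.7% and 4.85% of all tested genes. The median log2 fold change was 0.16. At an adjusted p under 0.05 with no fold limit, 17 rose, 9 fell and 7 did not pass, beside 35.1% higher and 33.2% lower among all tested genes. At a mean FPKM of 1 or more, 2 of 20 were called higher, beside 4.56% of all tested genes of that level, and the median was 0.05. Of these 2, NR1H4 was at 0.787 FPKM in NC and reached this level through siFSCN1. At a mean FPKM under 1, 2 of 13 were called higher (15.4%) and 2 lower, with a median of 0.54. Among all tested genes of that level, 24.9% were called higher and 5.06% lower.

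Named by the rule, SALL4, a stem cell factor, rose from 0.107 ± 0.015 FPKM to 0.573 ± 0.111 FPKM (log2 fold change 2.24 ± 0.21, adjusted p = 2.26e-08). NR1H4, the bile acid receptor, rose from 0.787 ± 0.104 FPKM to 1.85 ± 0.133 FPKM (1.07 ± 0.13, adjusted p = 6.71e-07), and the call was lost without NC replicate 3 (0.94). GATA4 was the called gene that fell above 0.5 FPKM. Picked after its values were seen, SOX9, a progenitor factor of bile duct, gut and lung, rose from 3.84 FPKM to 7.56 FPKM (0.81 ± 0.070, adjusted p = 1.01e-08).

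Genes for liver products gave the largest share of calls of the lists. Of 63 genes listed, which encode plasma proteins, clotting factors, apolipoproteins and liver enzymes, 52 were in the table and 35 were tested. Of the 35, 23 were called higher (65.7%) and 0 lower by edgeR, beside 11.7% and 4.85% of all tested genes. The counts were 22 and 0 by DESeq2 and 16 and 0 by limma on log2(FPKM + 0.1). The median log2 fold change was 1.34. At an adjusted p under 0.05 with no fold limit, 29 rose, 2 fell and 4 did not pass, beside 35.1% higher and 33.2% lower among all tested genes. At an unadjusted p under 0.05 the counts were 29 and 2. Part of the share called belongs to low genes, where 14 of 15 were called higher, beside 24.9% of all tested genes with a mean FPKM under 1. Low genes such as ALB and AFP entered the test through siFSCN1, which fixed their direction. No weight is placed on the low genes. The whole list was also chosen with earlier results of these data known, so its shares and medians at either level are a description. At a mean FPKM of 1 or more, 9 of 20 (45.0%) were called higher and the median was 0.80. Among all tested genes of that level, 4.56% were called higher and the median was −0.09. Of the 9, SERPINA1, AHSG, F7 and ITIH2 were under 1 FPKM in NC (0.277, 0.330, 0.660 and 0.867). They reached this level through siFSCN1. APOH, FGB, FGG, RBP4 and F2 were above 1 FPKM in NC.

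All 3 fibrinogen chains were among the higher-level genes of the list, and 2 of them were called. FGB, the fibrinogen beta chain, was at 6.52, 5.45 and 6.27 FPKM in NC and 27.04, 26.33 and 24.78 FPKM in siFSCN1, with no overlap, and rose by 1.93 ± 0.060 on the log2 scale (adjusted p = 1.09e-14). FGG, the gamma chain, rose from 5.76 ± 1.05 FPKM to 16.8 ± 0.940 FPKM (1.37 ± 0.088, adjusted p = 1.51e-10). The alpha chain FGA, named after its value was seen, rose less, from 14.8 FPKM to 21.1 FPKM (0.34 ± 0.057, adjusted p = 3.52e-05). The 3 chains, which are joined in 1 protein, thus moved by unequal amounts, and the order of their levels changed from FGA highest to FGB highest.

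Among the other secreted liver products, APOH, beta-2-glycoprotein I, rose from 11.5 ± 0.741 FPKM to 32.5 ± 1.07 FPKM (1.34 ± 0.057, adjusted p = 4.95e-13). RBP4, the plasma carrier of retinol, rose from 6.47 ± 0.596 FPKM to 25.3 ± 1.53 FPKM (1.80 ± 0.066, adjusted p = 7.61e-14). SERPINA1, alpha-1-antitrypsin, rose from 0.277 ± 0.097 FPKM to 2.50 ± 0.165 FPKM (2.97 ± 0.17, adjusted p = 2.74e-11). AHSG, fetuin-A, rose from 0.330 FPKM to 1.92 FPKM (2.34 ± 0.18, adjusted p = 1.38e-09), on 20 to 37 counts in NC. ITIH2, an inter-alpha-trypsin inhibitor chain, rose from 0.867 FPKM to 3.09 FPKM (1.67 ± 0.13, adjusted p = 1.84e-09). ASGR1, a subunit of the hepatocyte asialoglycoprotein receptor, rose from 0.313 FPKM to 1.47 FPKM (2.07 ± 0.15, adjusted p = 1.14e-09), on 33 to 49 counts in NC. The clotting factor gene F7 rose from 0.660 FPKM to 3.19 FPKM (2.10 ± 0.14, adjusted p = 3.24e-10). The prothrombin gene F2 rose from 1.31 FPKM to 2.95 FPKM (1.00 ± 0.11, adjusted p = 3.28e-07) and lay on the 2-fold border, so that leaving out any of 5 libraries took it just under (0.95 without NC replicate 2, 0.99 without NC replicate 3, and 1.00, 1.00 and 0.98 without siFSCN1 replicates 1, 2 and 3).

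Not every liver gene followed, and albumin and alpha-fetoprotein, which did, were at low levels in either group. Named after their values were seen, TM4SF4 was the most abundant gene of the list, at 62.1 FPKM in NC and 71.5 FPKM in siFSCN1, and did not pass the test (log2 fold change 0.04, adjusted p = 0.579). F12 and AMBP were the 2 genes of the list that fell, by 0.47 and 0.43 on the log2 scale (adjusted p = 2.07e-06 and 0.0016). Albumin (ALB) was at 0.06, 0.04 and 0.04 FPKM in NC and 0.18, 0.23 and 0.13 FPKM in siFSCN1, from 5 to 8 counts and 17 to 29 counts, and was called higher (log2 fold change 1.66 ± 0.41, adjusted p = 0.00148). Alpha-fetoprotein (AFP) was at 5 to 10 counts in NC and 20 to 27 counts in siFSCN1 and was called higher (1.36 ± 0.37, adjusted p = 0.00361). Both entered the test through their counts in siFSCN1. APOB, the editing target of A1CF and APOBEC1, had 0 counts in 5 of the 6 libraries and 5 counts in the other.

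**Figure D3:**
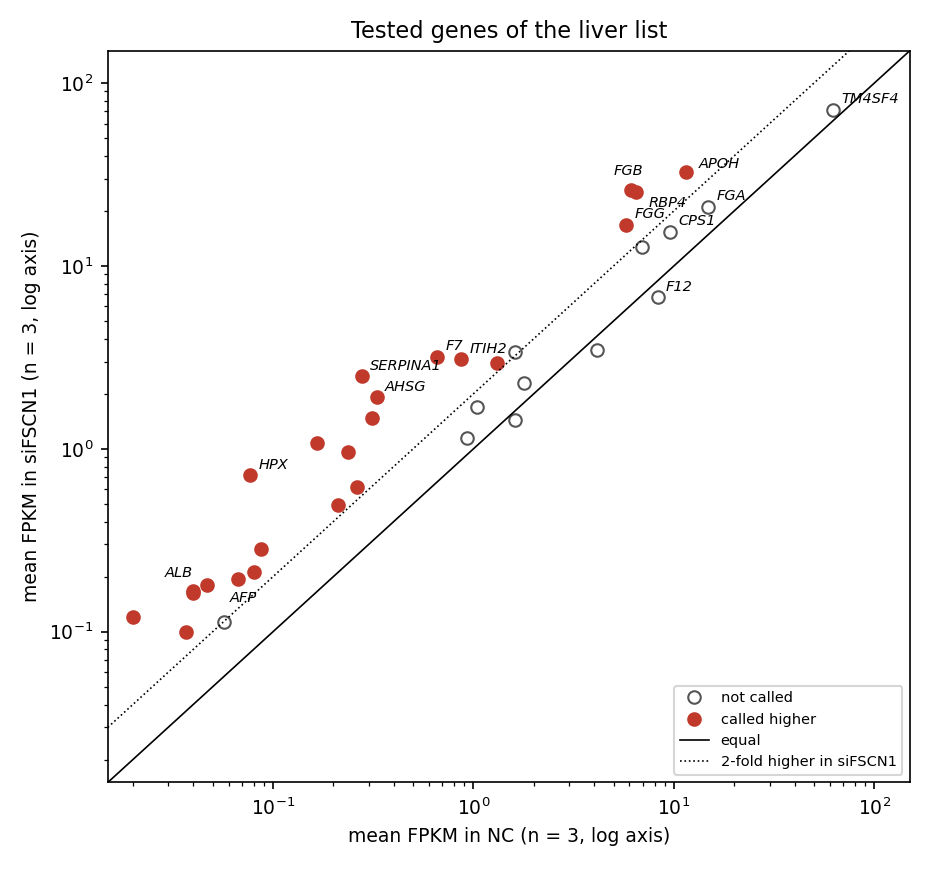
Mean deposited FPKM of the 35 tested genes of the liver list in NC (x axis) and siFSCN1 (y axis), both log axes, n = 3 libraries a group. Filled points are the 23 genes called higher, open points those not called, and the solid and dotted lines mark equal levels and 2-fold higher levels in siFSCN1. FGB, RBP4, FGG and APOH lie above the dotted line at several FPKM, and TM4SF4 lies near the line of equality.

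The study also cultured a hepatoma line and a trophoblast line, so markers of both were read in the same libraries. The summed level of 10 hepatoma markers, 9 of them in the table, was 52.9 to 59.7 CPM in NC and 190 to 200 CPM in siFSCN1. FGB gave most of that sum (33.5 CPM in NC and 128 CPM in siFSCN1), GPC3 and APOA1 had 7 counts or fewer in every library, and APOA2 was not analysed here. All 7 of the markers tested were called higher, beside 11.7% of all tested genes, with a median log2 fold change of 1.86. All 7 are also genes of the liver list, so this count repeats calls already given there and is no separate result. ALB and AFP among them entered the test through their counts in siFSCN1. The part of these markers in the result was not tested. The trophoblast markers summed to 16.0 to 17.6 CPM in NC and 14.8 to 15.2 CPM in siFSCN1, of which TFAP2C gave most, and CGB3, CSH1, GCM1 and HLA-G were at or near 0. Fibroblast markers summed to 3.72 to 4.57 CPM and 2.68 to 4.85 CPM, leukocyte markers to 6.99 to 8.18 CPM and 7.71 to 9.59 CPM, and endothelial markers to under 1 CPM in every library.

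Genes of intestine and stomach gave fewer calls than the liver list. Of 39 listed, 32 were in the table and 15 were tested, with a median log2 fold change of 0.48. Of the 15, 4 were called higher (26.7%) and 1 lower (6.67%), beside 11.7% and 4.85% of all tested genes. At a mean FPKM of 1 or more, 2 of 9 were called higher, beside 4.56% of all tested genes of that level. Of these 2, TSPAN8 was at 0.977 FPKM in NC and reached this level through siFSCN1. CDH17, the liver-intestine cadherin, was at 5.21, 5.01 and 4.74 FPKM in NC and 16.44, 15.44 and 16.44 FPKM in siFSCN1, with no overlap, and rose by 1.53 ± 0.055 on the log2 scale (adjusted p = 5.97e-14). The tetraspanin TSPAN8 rose by 1.82 ± 0.13, the peptidase DPP4 by 1.44 ± 0.13 and the galectin LGALS4 by 1.45 ± 0.34, with adjusted p of 3.91e-10, 9.32e-09 and 0.000956, and LGALS4 entered the test through its counts in siFSCN1. The keratin KRT20 fell by 1.62 ± 0.41 (adjusted p = 0.0019). NC replicate 3 carried much of that value, with 0.94 FPKM beside 0.31 and 0.35 FPKM, and without it the fitted value was −0.91 and was not called.

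Lung epithelial genes were listed because the line is of lung origin. Of 25, 21 were in the table and 14 were tested, of which 6 were called higher (42.9%) and 1 lower (7.14%), with a median of 0.52. Among all tested genes the shares were 11.7% and 4.85%. With a mean FPKM under 1, 5 of 9 were called higher, beside 24.9% of all tested genes of that level. With a mean FPKM of 1 or more, 1 of 5 was called higher, beside 4.56%, and the median was 0.14. MUC5B, an airway mucin, was at 1.75, 1.38 and 1.79 FPKM in NC and 6.64, 6.44 and 6.56 FPKM in siFSCN1 and rose by 1.83 ± 0.068 on the log2 scale (adjusted p = 9.26e-14). AGER, a marker of alveolar type 1 cells, rose from 0.280 FPKM to 1.55 FPKM (2.29 ± 0.21, adjusted p = 2.27e-08), on 14 to 27 counts in NC. NAPSA, an aspartic protease of alveolar type 2 cells, rose from 0.153 FPKM to 0.597 FPKM (1.78 ± 0.22, adjusted p = 1.14e-06), on 18 to 23 counts in NC. The basal keratin KRT5 fell by 1.83 ± 0.40 (adjusted p = 0.000584), a call that was lost without NC replicate 1 (−0.97), which held 1.11 FPKM beside 0.31 and 0.33 FPKM.

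The lists closest to AADAC and A1CF were read beside all tested genes, of which 11.7% were called higher and 4.85% lower. Of 18 tested esterases and lipases, 2 were called higher (11.1%) and 1 lower (5.56%), near those shares, with a median of 0.15. NCEH1 was the gene that fell. PON1, the serum paraoxonase, was at 0.113 FPKM in NC and 0.903 FPKM in siFSCN1 (2.77 ± 0.25, adjusted p = 1.72e-08), on 8 to 18 counts in NC, and entered the test through siFSCN1. BCHE, butyrylcholinesterase, rose by 1.11 ± 0.23 (adjusted p = 0.000321), a call that was lost without NC replicate 1 (0.96) or NC replicate 3 (0.97). Of 8 tested factors of RNA editing, 0 were called higher and 1 lower by edgeR and by DESeq2, and limma on log2(FPKM + 0.1) called 0. With no fold limit, 1 rose, 5 fell and 2 did not pass at an adjusted p under 0.05, and the counts were 1 and 5 at an unadjusted p under 0.05. Among all tested genes, 35.1% were higher and 33.2% lower at that adjusted p. The shares were 30.9% and 44.1% at a mean FPKM of 1 or more, where all 8 lie. KHSRP, an RNA-binding protein, fell from 26.0 FPKM to 13.3 FPKM (by 1.13 ± 0.047 on the log2 scale, adjusted p = 3.97e-13), which was under 2-fold when scaled to library totals (−0.94). APOBEC1, the deaminase that A1CF assists, had at most 1 count in any library and was not tested. Of 25 tested cofactors and repressors of the transcription factors, 1 was called higher and 0 lower by edgeR and by DESeq2, and limma on log2(FPKM + 0.1) called 2 higher. With no fold limit, 12 rose, 4 fell and 9 did not pass at an adjusted p under 0.05, beside the same 35.1% and 33.2% of all tested genes. The counts were 13 and 4 at an unadjusted p under 0.05. The called gene was NR2F1, a nuclear receptor (1.14 FPKM to 3.14 FPKM, log2 fold change 1.30 ± 0.11, adjusted p = 7.82e-09), and without NC replicate 1 there were 2 calls in this list.

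**Figure D4:**
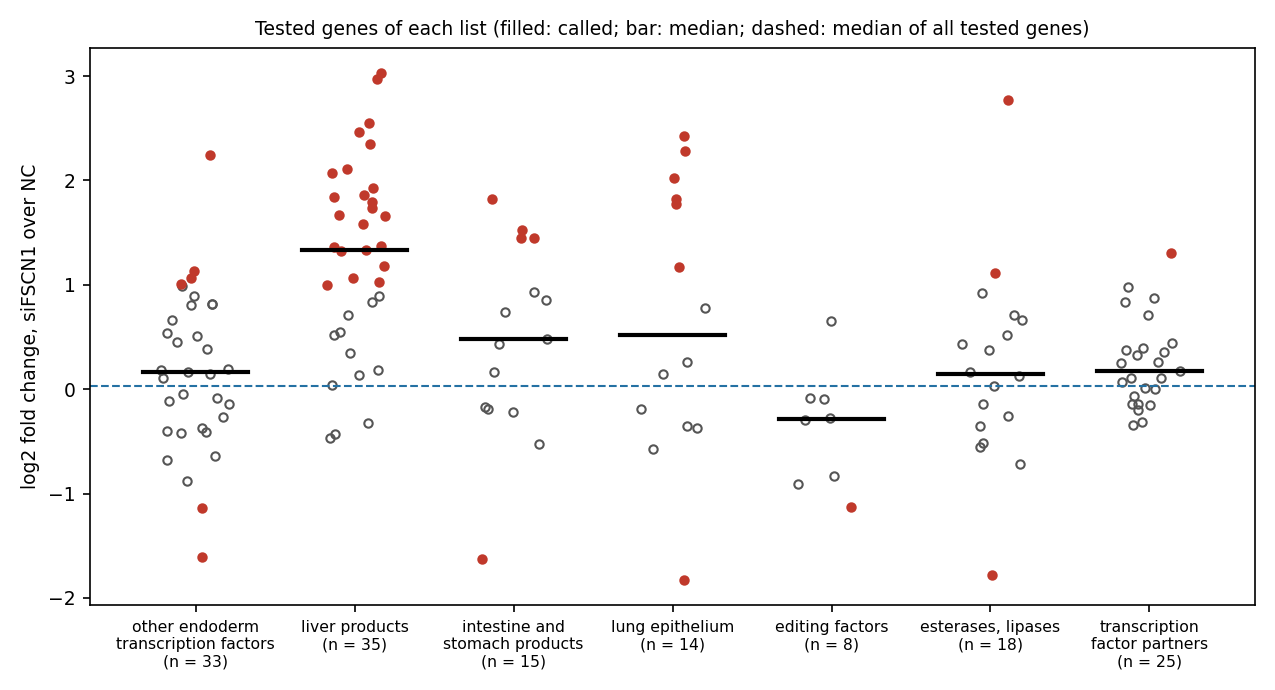
Fitted log2 fold change of siFSCN1 over NC (y axis) for every tested gene of the 7 lists, with filled points for called genes, a bar for the median of each list and a dashed line for the median of all tested genes (0.03). The liver list has a median of 1.34 and 23 filled points above 0, and the medians of the other lists lie between −0.29 and 0.52.

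The genes around the 8 loci were read to show how far the differences extended along the chromosome. Within 100 kb, the GENCODE annotation (GRCh38) held 59 genes, of which 38 were in the table and 20 were tested, and 7 of the 20 were called higher, beside 11.7% of all tested genes and 24.9% of those with a mean FPKM under 1, where 5 of the 7 lie. Of the 7, 4 had so few counts in NC that they entered the test through siFSCN1, which fixed their direction, and no weight is placed on the count. The divergent transcript CEBPA-DT, 0.323 kb from CEBPA on the opposite strand, was at 0.64, 0.76 and 0.78 FPKM in NC and 1.61, 1.72 and 1.68 FPKM in siFSCN1. It rose by 1.03 ± 0.15 on the log2 scale (adjusted p = 5.6e-06) beside the CEBPA value of −0.21, and the call was lost without NC replicate 1 (0.95) or siFSCN1 replicate 2 (1.00). LINC00261, a long noncoding RNA 2.356 kb from FOXA2 on the same strand, rose by 1.34 ± 0.21 (adjusted p = 2.27e-05), from 28 to 38 counts to 83 to 105 counts. CASC9, a noncoding RNA 55.587 kb from HNF4G, rose by 1.03 ± 0.12 (adjusted p = 6.06e-07), on 175 to 309 counts in NC and 491 to 514 counts in siFSCN1, and its call was lost without NC replicate 1 (0.91) or NC replicate 2 (0.95).

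The other called neighbours were near the limit of detection in NC and entered the test through siFSCN1. TTC6, which overlaps FOXA1 on the opposite strand, had 4 to 11 counts in NC and 31 to 37 counts in siFSCN1 (log2 fold change 2.04 ± 0.37, adjusted p = 0.0001). SUCNR1, the succinate receptor, lies 45.155 kb from AADAC and had 4 to 8 counts in NC and 14 to 17 counts in siFSCN1 (1.08 ± 0.43, adjusted p = 0.0332), and leaving out a library took this call away in 5 of the 6 cases, with values from 0.85 to 1.11. R3HDML-AS1 (RP5-881L22.5) near HNF4A had 0 to 9 counts in NC and 12 to 14 counts in siFSCN1 (1.36 ± 0.58, adjusted p = 0.0464), and leaving out a library took the call away in 5 of the 6 cases, with values from 0.85 to 1.40. RP11-359G22.4, 99.503 kb from FOXA2, had 5 to 7 counts and 12 to 21 counts (1.33 ± 0.43, adjusted p = 0.0106), and its call was lost without siFSCN1 replicate 2 (1.15). AADACP1, a pseudogene of the AADAC family 29.652 kb from AADAC, was at 5.52, 4.91 and 5.16 FPKM in NC and 6.52, 6.11 and 5.92 FPKM in siFSCN1 and did not pass (0.08 ± 0.091, adjusted p = 0.424). The sharing of reads between AADAC and this copy was not tested.

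Some of the 8 genes overlap genes on the other strand, and whether the counting used strand is not given in the sources used here. CEBPA is overlapped by CTD-2540B15.11 (42 to 62 counts in NC and 28 to 44 in siFSCN1) and CTD-2540B15.7 (23 to 37 and 11 to 23 counts), which are small beside the 800 to 1121 counts of CEBPA. A1CF is overlapped by ASAH2B, which had 147 to 219 counts in NC and 156 to 183 counts in siFSCN1 (log2 fold change −0.25 ± 0.13, adjusted p = 0.0915), above the counts of A1CF itself in NC. AADACL2-AS1 over AADAC had at most 1 count in any library, and GATA6-AS1 over GATA6 at most 12 counts.

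For each of the 8 genes, the tested gene with the most similar pattern over the 6 libraries was found by the root mean square difference of centred log2 CPM, among 17068 genes. These were PEX6 for FOXA1 (0.022), LITAF for FOXA2 (0.0079), IFT27 for HNF4A (0.034), RP11-296I10.3 for HNF4G (0.107), TMEM139 for GATA6 (0.084), KANK2 for CEBPA (0.023), GOLGA8B for AADAC (0.060) and CAPN8 for A1CF (0.039), where a smaller value is more alike. How rare such a match was differed between the genes. Within a difference of 0.1 there were 1468 genes for FOXA2 and 1316 for CEBPA, 143 for FOXA1 and 106 for HNF4A, 39 for A1CF, 12 for AADAC, 2 for GATA6 and 0 for HNF4G. The measure is taken over 6 libraries in 2 groups, includes the difference between the groups that chose the 8 genes, and is given as a description.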

How the data were processed

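Polyadenylated RNA of A549 cells was sequenced in 3 NC and 3 siFSCN1 libraries, grouped by sample title. The authors trimmed reads with the FASTX Toolkit, aligned them to GRCh38 with HISAT2 (the submitters' processing notes name TopHat2) and counted uniquely mapped reads; the counter, its strand setting and the annotation are not given in the sources used here. The authors deposited raw counts per gene (27967301 to 36560919 per library) and FPKM values, which they scaled to gene length and fragments mapped. The labels and the methods name different stranded library kits.

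The deposited counts were filtered with filterByExpr, scaled by TMM and tested with edgeR 4.0.16 (R 4.3.3), quasi-likelihood, with no covariate and Benjamini-Hochberg adjustment over 17076 genes. The study used DESeq2, which was run as an alternative (1.42.0), beside limma 3.58.1 on log2(FPKM + 0.1) and log2(FPKM + 1), other scalings and filters, a replicate block and leaving out each library. The edgeR, DESeq2 and limma fits were first run on simulated counts, with a pass condition for edgeR and DESeq2 only. The other steps had no such test. Same-numbered libraries did not deviate together (r of −0.03, 0.04 and −0.08), so the fit has no block. Gene positions came from GENCODE v44, and start regions from RefSeq.

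The 8 genes, the gene lists and the motifs were chosen with earlier results of these data known. The text names FSCN1, the 8 genes, their tested paralogs, called genes of each list with at least 0.5 FPKM in the higher group (at most 10 a list), called genes within 100 kb and the gene of most similar pattern. Others are said to be named after their values were seen. Some listed genes are counted in their list but not reported here by name. For a single value, an exact two-sided test of 3 against 3 libraries has a lowest p of 0.1.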

Additional observations from a re-analysis of the deposited data

How the results depend on the processing

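Over the 15 alternatives, the fitted log2 fold change of each of the 8 genes kept its direction, within 1.93 to 2.21 for AADAC, 0.95 to 1.28 for HNF4A, 0.27 to 1.10 for A1CF, 0.47 to 0.77 for FOXA1, 0.30 to 0.51 for FOXA2, 0.08 to 0.56 for HNF4G, −0.28 to −0.02 for CEBPA and −0.56 to −0.13 for GATA6. HNF4A was past 2-fold in 14 of the 15 and A1CF in 3. Of 535 values for FSCN1 and the called genes named in the text, 36 in all, 467 kept their direction and their side of the threshold, 68 lost the call and 0 turned direction. With limma on log2(FPKM + 1), a scale that shrinks low genes by construction, 471 genes were called in place of 2820 (285 higher and 186 lower, against 1991 and 829), with 1 in place of 6 other endoderm factors, 8 in place of 23 liver products and 2 in place of 5 intestine and stomach products. Scaling to library totals gave 2637 higher and 510 lower calls, and moved the median of all genes by 0.19. Leaving out a library gave 2854 to 3028 calls, 5 to 7 in other endoderm factors, 19 to 23 in liver products and 4 to 5 in intestine and stomach products. The smaller lists moved by more than 1.5 times in some settings, with 1 to 7 calls in lung epithelium, 0 to 1 in editing factors, 1 to 4 in esterases and lipases and 0 to 4 in transcription factor partners.

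With the replicate number as a block there were 2827 calls, and 6, 23 and 5 in the same 3 lists. The numbers do not pair the libraries by the check above, and the block took away the calls of SUCNR1 and R3HDML-AS1 and of no other named gene.

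Depth limits HNF4G, A1CF and the called neighbours under 50 counts, and with 3 libraries a group small differences cannot be placed firmly.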
